A study of Mus musculus with 46 samples.

Results

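The interferon regulatory factors (IRFs) are transcription factors that share a DNA-binding domain and read the promoter elements of interferon and interferon-stimulated genes. Irf3 and Irf7 switch on type I interferon genes after nucleic acid sensors activate the kinases Tbk1 and Ikbke, and Irf9 is part of the complex ISGF3, which carries the signal of the interferon receptor to its target genes. Irf8 is in addition a lineage factor of microglia, the resident macrophages of the brain, and works there with PU.1. Irf1, Irf2, Irf3, Irf4, Irf5, Irf7, Irf8 and Irf9 were taken by symbol from the tables of the study, 8 of 20999 genes in its count table. All 8 passed the filter on low counts and were among the 12230 genes tested.

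The study isolated microglia of male C57BL/6 mice from settings in which these cells divide and profiled their RNA and chromatin, with 2 replicates per condition that the labels call independent and biological. RNA was measured in 10 libraries. Adult microglia came from wild-type mice of 90 days and were labelled Ki67-negative, whereas Ki67-negative and Ki67-positive microglia of postnatal day 8 (PND8, 8 days) and of repopulation (75 days) came from Ki67-rfp mice, which carry a fluorescent reporter for Ki67, a protein of cycling cells. Repopulation followed depletion with PLX5622, an inhibitor of the receptor Csf1r that microglia need to survive, given from 55 days of age for 17 days, with 3 days of recovery. H3K27ac, a histone acetylation found at promoters and enhancers in use, was profiled in 12 libraries from wild-type mice: adult (60 and 65 days, untreated and labelled Ki67-negative, with the word Vehicle in the file headers), Ki67-negative and Ki67-positive PND8, Ki67-negative and Ki67-positive microglia of mice fed cuprizone, a toxin that strips myelin, for 4 weeks (90 days), and Ki67-positive repopulation (PLX5622 from 70 days of age for 17 days, then 3 days of recovery). For these, Ki67 was stained by antibody in fixed cells. Open chromatin (ATAC-seq) was profiled in 1 library each of adult (80 days), Ki67-positive PND8 (8 days) and Ki67-positive repopulation (75 days, PLX5622 as for RNA) microglia, whose genotype the labels give as WT in 1 field and, for the last 2, as Ki67rfp in another, RNA polymerase II subunit Rpb2 in adult (60 and 65 days) and Ki67-positive PND8 (8 days) microglia, and H3K4me3, a promoter mark, in 2 adult libraries (75 days). All cells were sorted with antibodies to CD11b, CD45 and CD44 after isolation on ice with butyrate, which blocks histone deacetylases, and flavopiridol, which blocks transcription elongation. Cuprizone has no RNA library here.

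RNA libraries held 6865903 to 10287876 counts. Replicates of a group differed by more than sampling noise in every group. Each RNA file header carries a numeric code: both adult libraries share 1 code that no other group has, so code, genotype and group cannot be told apart in any comparison with adult. Code 200309 is shared by replicate 2 of the PND8 groups and replicate 1 of the repopulation groups, and values within it are given below. Markers of microglia summed to 6132 to 8140 CPM (counts scaled to the size of the library) in all 10 libraries. The 6 markers of border macrophages summed to 59.0 to 67.2 CPM in adult, to 578 to 845 CPM in PND8 and to 25.9 to 42.3 CPM in repopulation libraries, where Lyve1, Cd209f and Clec4n were at 0. Mrc1 made up most of this sum in every library. Markers of monocytes and neutrophils summed to 69.4 to 228 CPM in adult and to 7.52 to 18.5 CPM in the other libraries. Of the H3K27ac libraries, adult replicate 1 stood apart, with 32.6% of its tags in called regions against 45.5% to 69.7% in the others.

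In mm10 coordinates the 8 genes lie on 6 chromosomes, and the count table places Irf1 at chr11:53770014-53777324 (+), Irf2 at chr8:46739745-46847458 (+), Irf3 at chr7:44997648-45002848 (+), Irf4 at chr13:30749233-30766981 (+), Irf5 at chr6:29529282-29537320 (+), Irf7 at chr7:141263183-141266424 (−), Irf8 at chr8:120738639-120756692 (+) and Irf9 at chr14:55603985-55610030 (+). Irf5 and Irf8 start further upstream in the TPM table, at 29526625 and 120736358, and those starts were used as the transcription start sites (TSS). The TSS of Bcl2l12 lies within 1 kb of that of Irf3, so chromatin signal there can belong to either gene. Within 20 kb lie also the TSS of Prmt1 and Scaf1 at Irf3, of Kcp at Irf5 and of Cdhr5 and Sct at Irf7. Regions away from the TSS of these members can likewise belong to such neighbours. RefSeq places Tnpo3 over a part of Irf5 and the long non-coding RNAs Gm31172 and Gm39170 over parts of Irf2. The strand setting of the counts is not given in the sources used here, so reads of these overlapping stretches are uncertain.

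The bases upstream of the TSS are shown for Irf4, Irf7 and Irf9, which had the largest RNA changes in repopulation against adult microglia, and for Irf1, Irf2 and Irf8, whose promoters held an interferon-type motif, from RefSeq on GRCm38.p6, 5′ to 3′ on the strand of the gene. Capitals mark matches, on either strand, to 4 motifs: the interferon-stimulated response element ISRE (GAAA, any 2 bases, GAAA), which IRFs bind, the ETS-IRF composite element EICE (GGAA, any 2 bases, GAAA), bound by PU.1 together with Irf4 or Irf8, the gamma-activated site GAS (TTCNNNGAA), which answers to interferon-gamma, and the TATA box (TATAAA). The windows lie at chr11:53769764-53770013 (Irf1, +), chr8:46739495-46739744 (Irf2, +), chr13:30748983-30749232 (Irf4, +), chr7:141266500-141266674 (Irf7, −), chr8:120736108-120736357 (Irf8, +) and chr14:55603735-55603984 (Irf9, +).
Irf1: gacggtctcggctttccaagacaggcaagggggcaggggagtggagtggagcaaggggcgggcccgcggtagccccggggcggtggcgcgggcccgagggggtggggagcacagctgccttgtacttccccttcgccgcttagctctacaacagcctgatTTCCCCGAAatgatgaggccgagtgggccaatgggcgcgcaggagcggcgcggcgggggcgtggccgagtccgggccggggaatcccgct
Irf2: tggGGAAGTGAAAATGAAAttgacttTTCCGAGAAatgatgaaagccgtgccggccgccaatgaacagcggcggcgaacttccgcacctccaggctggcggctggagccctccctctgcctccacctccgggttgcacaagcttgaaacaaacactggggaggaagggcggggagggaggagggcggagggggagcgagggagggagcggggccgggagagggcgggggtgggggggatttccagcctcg
Irf4: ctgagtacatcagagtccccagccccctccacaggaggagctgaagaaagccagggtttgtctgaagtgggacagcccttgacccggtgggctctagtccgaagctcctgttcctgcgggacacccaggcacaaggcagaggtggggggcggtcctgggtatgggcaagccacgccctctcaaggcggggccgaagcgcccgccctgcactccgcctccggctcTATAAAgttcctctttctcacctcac
Irf7: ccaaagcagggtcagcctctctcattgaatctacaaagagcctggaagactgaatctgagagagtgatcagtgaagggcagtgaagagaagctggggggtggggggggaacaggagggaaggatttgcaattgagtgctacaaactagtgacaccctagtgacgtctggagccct
Irf8: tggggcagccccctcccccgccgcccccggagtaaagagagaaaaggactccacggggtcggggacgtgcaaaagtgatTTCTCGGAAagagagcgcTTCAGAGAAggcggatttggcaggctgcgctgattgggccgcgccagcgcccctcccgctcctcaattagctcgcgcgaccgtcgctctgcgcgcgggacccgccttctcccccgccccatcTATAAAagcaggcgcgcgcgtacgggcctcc
Irf9: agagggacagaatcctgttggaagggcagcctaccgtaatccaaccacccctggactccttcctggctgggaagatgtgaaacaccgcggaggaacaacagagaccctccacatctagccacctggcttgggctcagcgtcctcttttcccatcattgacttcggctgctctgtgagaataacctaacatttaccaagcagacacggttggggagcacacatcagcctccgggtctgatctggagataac
In the 250 bases upstream of the TSS, Irf2 held an ISRE from −241 to −232 that overlaps an EICE from −247 to −238, and a GAS from −224 to −216. Irf1 held 1 GAS, from −90 to −82, and Irf8 held a pair of them, from −171 to −163 and from −153 to −145. A TATA box began at −31 in Irf8, at −26 in Irf4 and at −29 in Irf7, where the last 75 bases of the window lie inside the RefSeq gene and are not printed. Irf9 held no match to any of the 4 motifs in this window, and neither did Irf3 and Irf5. The window of Irf5 lies wholly inside its RefSeq gene, which starts further upstream, at 29526130, so bases upstream of that start were not searched. Among 32817 promoters, 2.97% held the ISRE, 2.3% the EICE, 7.01% the GAS and 12.4% the TATA box in the same window. These matches are letters in a window and were not tested as binding sites.

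Between genes, levels were compared in TPM, the deposited transcript abundance, which accounts for transcript length. In adult microglia Irf8 (mean 254 TPM) and Irf5 (246 TPM), a factor of Toll-like receptor and inflammatory signalling, stood highest, followed by Irf2 at 101 TPM. Irf3 (70.0 TPM), Irf9 (66.0 TPM) and Irf1 (65.4 TPM) came next, and neighbours among these overlapped between their libraries. Irf7 (10.2 TPM) and Irf4 (9.43 TPM) were lowest and overlapped. The order in PND8 was the same for Irf8, Irf5 and Irf2 at the top and for Irf7 and Irf4 at the bottom, with Irf7 at 10.8 TPM in Ki67-negative and 12.9 TPM in Ki67-positive cells. In repopulation Irf8 and Irf5 stayed on top (241 and 241 TPM in Ki67-negative cells, where they overlapped, and 257 and 239 TPM in Ki67-positive cells), but Irf9 came next, at 100.3 and 105 TPM, and Irf7 after it, at 89.6 and 83.4 TPM. In Ki67-positive repopulation Irf7 overlapped its next neighbour, Irf2 (70.2 TPM). Irf4 was lowest in all 4 of these groups, at 2.82 to 3.42 TPM.

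**Figure D1:**
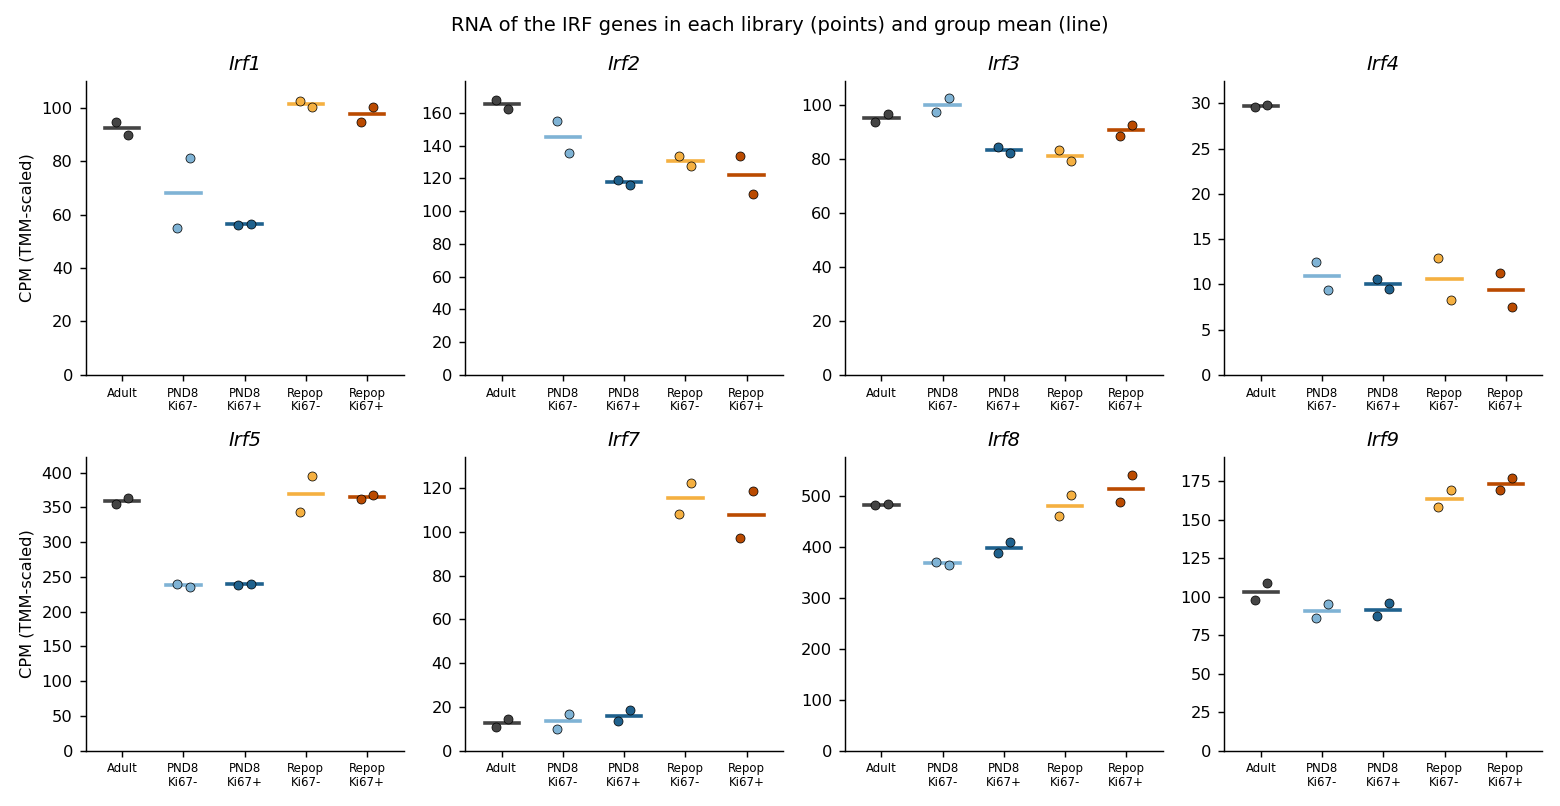
Level of each IRF gene in each of the 10 RNA libraries, in CPM on a linear axis from 0, with 2 points per group and a line at the group mean. Irf7 lies at 9.78 to 18.4 CPM in the adult and PND8 libraries and at 97.2 to 122 CPM in the 4 repopulation libraries; Irf4 is the only panel in which the adult libraries stand above all others by more than 2-fold.

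Irf7 and Irf9 were higher in repopulating than in adult microglia, and by far more for Irf7. Irf7, the amplifier of type I interferon production, stood at 10.8 and 14.3 CPM in adult, 9.78 and 16.9 CPM in Ki67-negative PND8, 13.3 and 18.4 CPM in Ki67-positive PND8, 108 and 122 CPM in Ki67-negative repopulation and 97.2 and 119 CPM in Ki67-positive repopulation. The 4 repopulation libraries lie far above the 6 others and there is no overlap. Over adult the rise was 8.61-fold in Ki67-positive cells (log2 fold change 3.11, SE 0.22, edgeR adjusted p = 1.38e-07) and 9.21-fold in Ki67-negative cells (3.20, SE 0.22, adjusted p = 1.54e-07). Irf9, the DNA-binding subunit of ISGF3, stood at 97.6 and 109 CPM in adult, 86.1 to 95.7 CPM in PND8, 158 and 169 CPM in Ki67-negative and 169 and 177 CPM in Ki67-positive repopulation. Here too the repopulation libraries lie above all others. Its rise over adult was 1.68-fold in Ki67-positive (log2 fold change 0.75, SE 0.09, adjusted p = 3.04e-05) and 1.58-fold in Ki67-negative cells (0.66, SE 0.09, adjusted p = 0.000115). In bulk libraries such as these, more cells of a type and more RNA per cell cannot be told apart. The summed markers of border macrophages and dendritic cells were lowest in repopulation (dendritic cells 5.76 to 8.08 CPM, against 10.4 to 16.0 CPM in adult and PND8). Those of monocytes and neutrophils were at 15.8 to 18.5 CPM there, below adult and above PND8 (7.52 to 11.7 CPM). Within this last sum Plac8 went the other way, at 6.87 CPM or more in all 4 repopulation libraries against 1.16 and 0.73 CPM in adult. Ccr2, S100a8, S100a9, Ngp, Ltf and Camp were lower in repopulation than in adult, and Ly6c2 overlapped. Ngp, the highest of these in adult, differed between the adult replicates (83.4 and 20.2 CPM). Summed astrocyte markers were highest in Ki67-negative repopulation: they came to 408 to 565 CPM in repopulation, 238 to 245 CPM in adult and 53.6 to 429.8 CPM in PND8 libraries. Most of this sum was 1 gene, Slc1a3 (398 to 552 CPM in repopulation, 233 and 243 CPM in adult). Aldh1l1 was also higher in repopulation (4.63 to 9.78 CPM) than in adult (0 and 0.58 CPM). Gfap, Aqp4, Gja1 and Aldoc lay at 0 to 2.89 CPM in repopulation. The part of these other cells in the differences was not tested.

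Irf2 and Irf4 were lower in repopulation than in adult microglia. Irf4, the closest relative of Irf8 and like it a partner of PU.1, stood at 29.6 and 29.8 CPM in adult, 12.9 and 8.23 CPM in Ki67-negative repopulation and 11.2 and 7.48 CPM in Ki67-positive repopulation, without overlap. It fell by 1.65 on the log2 scale in Ki67-positive cells (SE 0.25, edgeR adjusted p = 0.00013) and by 1.47 in Ki67-negative cells (SE 0.24, adjusted p = 0.000398), on 52 to 124 counts per repopulation library against 244 and 256 in adult. Irf2, which competes with Irf1 at shared sites and represses many of them, stood at 168 and 162 CPM in adult, 133 and 128 CPM in Ki67-negative and 134 and 110.3 CPM in Ki67-positive repopulation. It fell by 0.43 (SE 0.10, adjusted p = 0.00374) in Ki67-positive and by 0.34 (SE 0.10, adjusted p = 0.018) in Ki67-negative cells. The first call was lost without Ki67-positive repopulation replicate 2 (−0.30, adjusted p = 0.0614), and the second without adult replicate 1 (adjusted p = 0.106), adult replicate 2 (0.0649) or Ki67-negative repopulation replicate 2 (0.1). In each of the 2 comparisons with adult 4 of 8 members passed the test, 2 higher and 2 lower. Of all genes, 44.9% passed in the Ki67-positive comparison (23.9% higher, 21% lower) and 39.2% in the Ki67-negative one (21.5% higher, 17.6% lower). Both comparisons use the same adult libraries. Irf5 (362.5 and 368 CPM in Ki67-positive repopulation against 355 and 364 CPM in adult) and Irf8 (488 and 541 against 482 and 483.5 CPM) did not pass, with log2 fold changes of 0.02 and 0.09. Irf1 and Irf3 did not pass either, at 0.08 and −0.07.

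**Figure D2:**
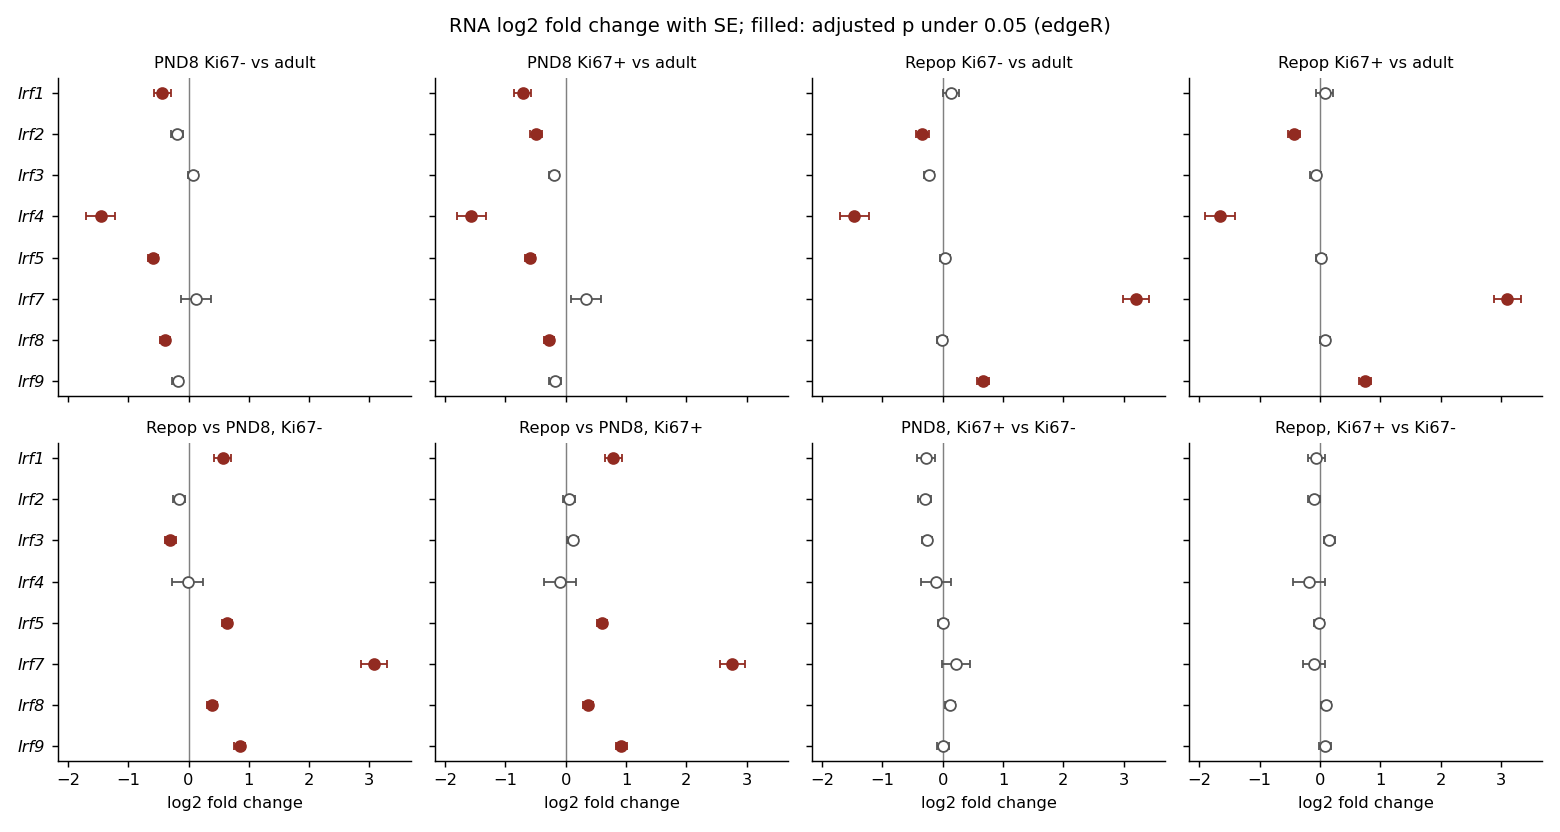
Log2 fold change of each IRF gene in 8 comparisons of RNA groups, with bars of 1 standard error from the edgeR fit over 10 libraries and filled points where the adjusted p is under 0.05. Irf7 stands apart at 2.77 to 3.20 in the 4 comparisons of repopulation with adult or PND8, and Irf4 at −1.45 to −1.65 in the 4 comparisons with adult.

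PND8 microglia held less RNA of several members than adult microglia. Irf5 stood at 355 and 364 CPM in adult, 240.0 and 236 CPM in Ki67-negative and 239 and 240.4 CPM in Ki67-positive PND8, so that the 4 PND8 libraries lie close together and well below adult. It fell by 0.60 on the log2 scale in Ki67-negative (SE 0.08, edgeR adjusted p = 7.11e-05) and by 0.59 in Ki67-positive cells (SE 0.08, adjusted p = 6.9e-05). Irf4 stood at 12.5 and 9.36 CPM in Ki67-negative and 10.6 and 9.48 CPM in Ki67-positive PND8, and fell by 1.45 (SE 0.24, adjusted p = 0.000302) and by 1.57 (SE 0.24, adjusted p = 0.000151). Irf8 stood at 482 and 483.5 CPM in adult, 371 and 365 CPM in Ki67-negative and 387 and 409 CPM in Ki67-positive PND8. It fell by 0.39 (SE 0.08, adjusted p = 0.00183) and by 0.28 (SE 0.08, adjusted p = 0.0134), and the latter call was lost without adult replicate 1 (adjusted p = 0.0712), adult replicate 2 (0.0735) or Ki67-positive PND8 replicate 1 (0.113).

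Irf1, an activator induced by interferon-gamma, stood at 94.8 and 89.8 CPM in adult, 55.1 and 81.1 CPM in Ki67-negative and 56.2 and 56.6 CPM in Ki67-positive PND8. The drop of 0.71 in Ki67-positive cells passed (SE 0.14, edgeR adjusted p = 0.001). In Ki67-negative cells the log2 fold change was −0.43 (SE 0.14, adjusted p = 0.0213), and this call was near the threshold: it was lost with library sizes alone (0.0567), with limma on log2(TPM + 1) (0.0509) and with only the compared groups in the fit (0.0536), as well as without adult replicate 1 (0.114) or 2 (0.0621) and without Ki67-negative PND8 replicate 1 (−0.19, adjusted p = 0.144). Irf2 stood at 155 and 136 CPM in Ki67-negative and 119 and 116 CPM in Ki67-positive PND8, against 168 and 162 CPM in adult. It fell by 0.49 (SE 0.10, adjusted p = 0.0014) in Ki67-positive cells, while −0.19 in Ki67-negative cells did not pass. Irf3 (82.3 to 103 CPM in PND8, 93.8 and 96.9 CPM in adult), Irf7 and Irf9 did not pass in either comparison. In all, 5 of 8 members passed in Ki67-positive and 4 of 8 in Ki67-negative PND8, each of them lower than adult, where 24.3% and 21.4% of all genes passed as lower, 25.1% and 25.4% as higher and 49.5% and 46.8% in either direction. The median log2 fold change of the 8 members was −0.38 and −0.29, against 0.0018 and 0.03 over all genes. The summed border macrophage markers were higher in the same PND8 libraries, mostly by Mrc1 (520 to 834 CPM against 49.7 and 52.7 CPM in adult). Lyve1 and Pf4 were also higher there, whereas Cd163, Cd209f and Clec4n overlapped adult. The part of such cells in these differences was not tested.

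Repopulation was also set against PND8 at the same Ki67 status. Irf7 rose 6.80-fold in Ki67-positive (log2 fold change 2.77, SE 0.21, edgeR adjusted p = 5.51e-07) and 8.47-fold in Ki67-negative cells (3.08, SE 0.22, adjusted p = 1.86e-07). Irf9 rose by 0.92 (SE 0.10, adjusted p = 8.08e-06) and by 0.85 (adjusted p = 1.63e-05). Irf1, Irf5 and Irf8 were also higher, by 0.79, 0.61 and 0.37 in Ki67-positive cells (adjusted p = 0.000913, 0.000101 and 0.00454). In Ki67-negative cells they were higher by 0.57, 0.63 and 0.39 (adjusted p = 0.00643, 6.09e-05 and 0.00295). Irf8 in Ki67-positive cells lost the call without PND8 replicate 1 (0.0739) or repopulation replicate 2 (0.0623). Irf3, the latent factor that Tbk1 phosphorylates, stood at 97.5 and 103 CPM in Ki67-negative PND8 and at 83.4 and 79.2 CPM in Ki67-negative repopulation. It fell by 0.30 there (SE 0.09, adjusted p = 0.0178), a call lost with DESeq2 (0.0604), with only the compared groups in the fit (0.123), and without PND8 replicate 2 (0.0902) or repopulation replicate 2 (0.0893). Thus 5 of 8 members passed in Ki67-positive cells, all higher (16.7% of all genes passed as higher, 14.2% as lower and 30.9% in either direction), and 6 of 8 in Ki67-negative cells, 5 of them higher (18% as higher, 18.6% as lower and 36.6% in either direction). Irf2 and Irf4 did not pass in either. Between the single libraries that share header code 200309, Irf7 differed by 2.39 on the log2 scale in Ki67-positive and 2.67 in Ki67-negative cells, Irf9 by 0.82 and 0.73, Irf5 by 0.59 and 0.54, Irf1 by 0.74 and 0.34, and Irf8 by 0.25 and 0.34.

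Ki67 status itself did not separate any member at the threshold. Between Ki67-positive and Ki67-negative cells of PND8, 0 of 8 members passed edgeR's test, where 5.9% of all genes did, and 2 of 8 had an unadjusted p under 0.05: Irf2 (log2 fold change −0.30, adjusted p = 0.105) and Irf3 (−0.26, adjusted p = 0.105). With the header code as a term in the edgeR fit these 2 passed (adjusted p = 0.0228 and 0.0478). Calls rose over all 12230 genes as well, from 721 without that term to 1627 with it. Within the pairs that share a code the 2 members differed by −0.38 and −0.22 (Irf2) and by −0.20 and −0.32 (Irf3). Without Ki67-negative replicate 1, the log2 fold change of Irf1 was −0.52. In repopulation 0 of 8 members passed, 2.74% of all genes did, and no member had an unadjusted p under 0.05, with log2 fold changes from −0.19 (Irf4) to 0.16 (Irf3). The difference between the Ki67 effects of the settings passed for 0 of 8 members and 0% of all genes. Of the members, Irf3 had an unadjusted p under 0.05 there (0.42, SE 0.13, adjusted p = 0.96).

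The genes around the family were read from lists, whose counts are set against the share of all genes that passed. Against adult, 23.9% of all genes were higher and 21% lower in Ki67-positive repopulation, 21.5% and 17.6% in Ki67-negative repopulation, 25.1% and 24.3% in Ki67-positive PND8, and 25.4% and 21.4% in Ki67-negative PND8. Of 8 interferon ligand genes none had enough counts to be tested: 4 were at 0 in all 10 libraries, and the highest count of any was 4, for Ifnb1. At this depth a ligand of lower abundance was not detectable. Of 10 genes for interferon receptors, Janus kinases and STATs, 5 were higher and 1 lower in repopulation than in adult microglia, at either Ki67 status. Stat2, which binds Irf9 in ISGF3, rose by 1.60 (SE 0.09, edgeR adjusted p = 1.24e-08) in Ki67-positive cells and by 1.61 in Ki67-negative cells. Ifngr1, a chain of the interferon-gamma receptor, fell by 0.44 and 0.30. In PND8, 5 of the 10 were lower than adult at either Ki67 status, and Stat2 was the 1 that was higher, in Ki67-positive cells (0.28, adjusted p = 0.0179).

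Among 21 nucleic acid sensors, adaptors and IRF kinases, 13 were lower and none higher in PND8 than in adult microglia at either Ki67 status. They include the double-stranded RNA sensor Tlr3 (−1.84 in Ki67-positive cells), its adaptor Ticam1 (−1.13) and Ddx58, which encodes RIG-I (−0.94). In repopulation 5 were higher and 7 lower in Ki67-positive cells, while 7 rose and 5 fell in Ki67-negative cells, led by the Z-nucleic acid sensor Zbp1 (3.72 and 3.91). Dhx58, a RIG-I-like receptor, and Ddx58 rose by 2.21 and 0.89 in Ki67-positive cells. The 2 kinases of Irf3 and Irf7 differed in pattern. Tbk1 did not pass, at 0.01 in Ki67-positive and 0.11 in Ki67-negative cells (130.8 CPM in adult). Ikbke stood at a mean of 3.64 CPM in adult, 15.5 CPM in Ki67-negative and 5.25 CPM in Ki67-positive repopulation. It rose by 2.09 in Ki67-negative cells (SE 0.32, edgeR adjusted p = 0.000199) but not past the threshold in Ki67-positive cells (0.54, adjusted p = 0.222), and it was lower in Ki67-positive than in Ki67-negative repopulation (−1.56, SE 0.31, adjusted p = 0.0136).

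All 24 type I interferon-stimulated genes tested were higher in repopulation, in each of the 4 comparisons with adult and with PND8. The summed astrocyte markers given above, mostly Slc1a3, were higher there than in adult as well. The median log2 fold change of the 24 genes over adult was 2.75 in Ki67-positive and 2.82 in Ki67-negative cells, led in Ki67-positive cells by Ifi27l2a (5.29), the antiviral synthetase Oas2 (4.25) and Ifi44 (4.03). In PND8 9 of them were higher and 1 lower than adult in Ki67-positive cells, while 11 rose and 3 fell in Ki67-negative cells, with medians of 0.15 and 0.34. Ifi27l2a (3.40) and Oas2 (1.84) were among the higher genes there and Herc6 (−0.88) was the lower one in Ki67-positive cells. Thus a part of these genes was raised at PND8 where Irf7 and Irf9 did not pass. Of 13 targets of interferon-gamma and Irf1, 8 were higher and 2 lower in Ki67-positive repopulation than in adult. Nlrc5, the activator of major histocompatibility class I genes, rose by 2.35 and the GTPase Gbp2 by 1.43, whereas Ciita, the class II activator, fell by 2.00 on few counts (3 to 8 against 13 to 35 in adult). In Ki67-positive PND8, 3 of the 13 were higher and 5 lower, Ciita by −2.79 and Gbp2 by −1.12. Of 8 partners and corepressors of IRFs, 4 were lower and none higher in repopulation at either Ki67 status. These include Etv6 (−0.44), Irf2bpl (−0.43) and Irf2bp1 (−0.34) in Ki67-positive cells. Spi1, which encodes PU.1, did not pass (0.06, edgeR adjusted p = 0.633, 227.5 CPM in adult). Of 9 negative regulators, 4 were lower and none higher in Ki67-positive repopulation, among them Tnfaip3 (−0.59) and Socs3 (−0.51).

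**Figure D3:**
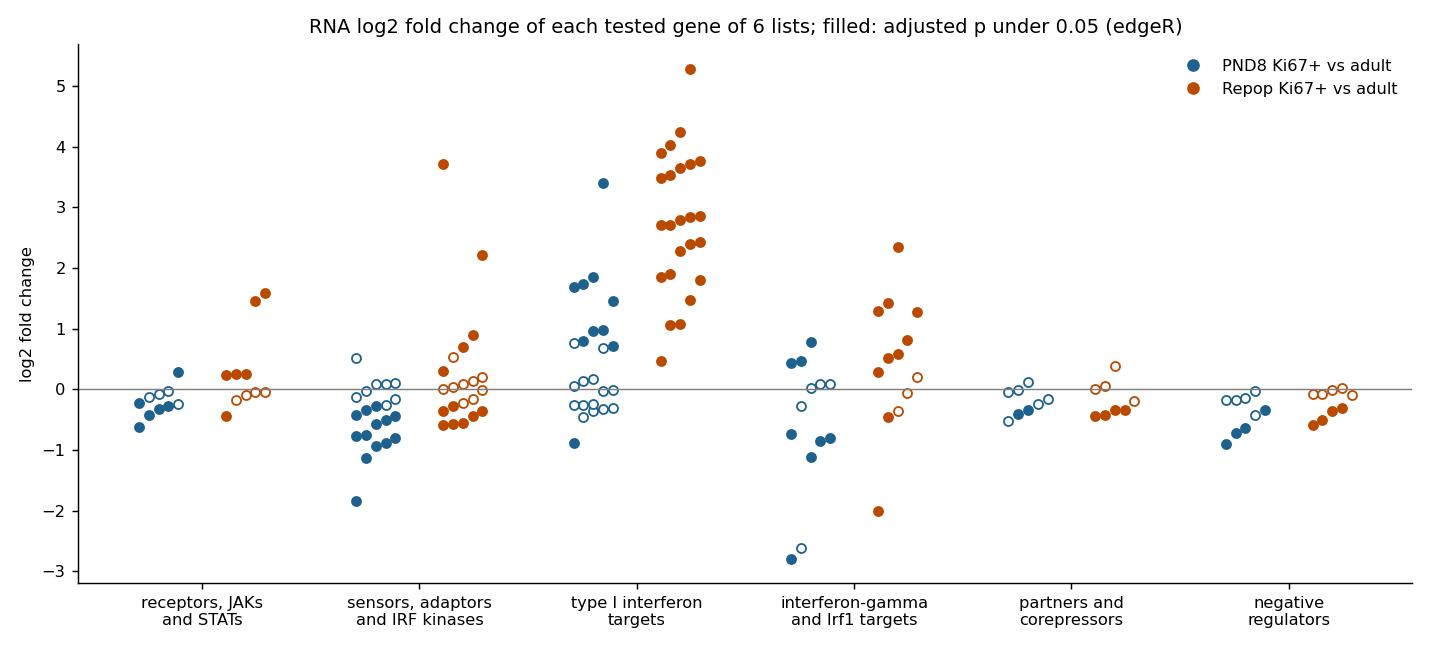
RNA log2 fold change of each tested gene of 6 lists in Ki67-positive PND8 (blue) and Ki67-positive repopulation (orange) against adult, 1 point per gene, filled where the edgeR adjusted p is under 0.05. All 24 type I interferon-stimulated genes are filled and above 0 in repopulation, and 13 of 21 sensors, adaptors and kinases are filled and below 0 in PND8.

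Genes whose log2 CPM followed each member most closely over the 10 libraries were named by Pearson's r, as a description without a test, since libraries of a group share their setting. Irf7 was followed by Tspan32 (0.996), Zbp1 (0.995) and Ifi204 (0.992), and Irf9 by Pdia5 (0.994), Pdcd1 (0.993) and Phf11b (0.993). For Irf4 these were Nfia (0.996), Arsk (0.985) and Arhgef18 (0.985), and for Irf5 Cmklr1 (0.992), Hps4 (0.991) and Herpud1 (0.990). Irf8 was followed by Dnajc25 (0.969), Cggbp1 (0.965) and Tapbp (0.965), Irf1 by Zfp276 (0.979), Tmc6 (0.972) and Pced1a (0.970), and Irf2 by Mef2d (0.974), Ikzf2 (0.963) and Yes1 (0.961). Irf3, the flattest member, had the weakest match, Pyroxd1 (0.900).

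H3K27ac regions were called by the authors in each library separately, and the signal of a window is their tag count, scaled to 10000000 tags, of the part of each region that lies within 1 kb of the TSS. A value of 0 means that no region was called there. Groups of 2 cannot pass a permutation test (the smallest exact two-sided p is 0.333333), so members are counted whose libraries do not overlap between groups, beside the share of such genes among the 11206 with signal in any library. Irf7 had 0 and 36.4 in adult, 0 and 42.2 in Ki67-negative PND8, 44.2 and 54.5 in Ki67-positive PND8, 61.0 and 119 in Ki67-negative cuprizone, 129 and 178.5 in Ki67-positive cuprizone, and 94.5 and 117 in Ki67-positive repopulation. All 6 cuprizone and repopulation libraries lie above all 6 adult and PND8 libraries. The called region covered 1237 to 1294 bases of the window in the adult and PND8 libraries that had one and 755 to 1477 bases in the cuprizone and repopulation libraries, at 28.9 to 42.1 and 66.6 to 122 tags per kb. Irf9 had 122 and 176.6 in adult, 139.5 and 163 in Ki67-negative PND8, 139.7 and 188.5 in Ki67-positive PND8, 261 and 350.2 in Ki67-negative cuprizone, 259 and 350.1 in Ki67-positive cuprizone, and 223 and 293 in repopulation. The same 6 libraries are again the highest. Its regions covered 1458 to 1726 bases in adult and PND8 and 1736 to 1899 bases in cuprizone and repopulation.

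**Figure D4:**
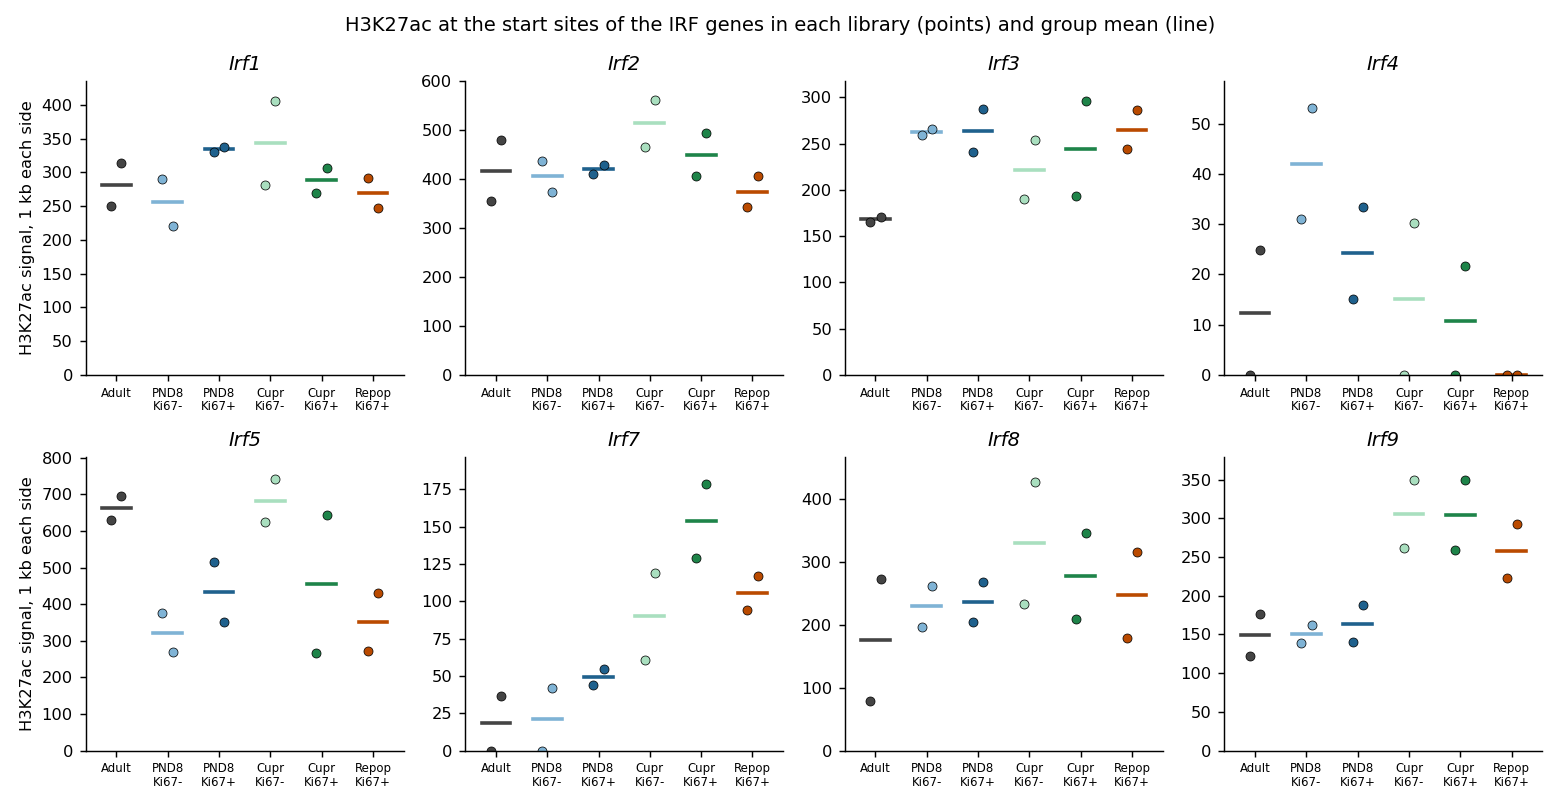
H3K27ac signal within 1 kb of the TSS of each IRF gene in each of the 12 libraries, in tags per 10000000, with 2 points per group and a line at the group mean. For Irf7 and Irf9 the 6 cuprizone and repopulation libraries lie above the 6 adult and PND8 libraries (61.0 to 178.5 against 0 to 54.5 for Irf7, and 223 to 350.2 against 122 to 188.5 for Irf9).

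Against adult, Irf3, Irf7 and Irf9 were higher without overlap in Ki67-negative cuprizone, in Ki67-positive cuprizone and in repopulation. That makes 3 of 8 members, where 36.6%, 40% and 49.7% of genes were also higher, so the count alone lies near the background. In repopulation Irf5 was the 1 member that was lower (6.26% of genes), while in cuprizone none was (0.803% and 2.79%). Irf3 stood at 165 and 171 in adult and at 189.8 to 296 in the other 10 libraries, in a window that also holds the TSS of Bcl2l12. In each of these comparisons its separation from adult held in 5 of 8 other settings of window, region filter, scaling or TSS. In a pair of libraries with the same header code, repopulation replicate 1 over adult replicate 2, the ratio was 2.60 for Irf7, 1.27 for Irf9 and 0.391 for Irf5. No cuprizone library (90 days) shares a header code with an adult one (60 and 65 days). Code, age and group therefore cannot be told apart for cuprizone against adult. Counting only regions at 8 times the input or more, Irf7 no longer separated repopulation or Ki67-negative cuprizone from adult, nor repopulation from PND8. Repopulation was set against Ki67-positive PND8 as well. Irf7 and Irf9 were higher (11.3% of genes) and Irf1, Irf2 and Irf4 lower (34.4% of genes). With the same header code the ratio was 1.73 for Irf7 and 1.19 for Irf9. Within 20 kb the same 5 members did not overlap, where 18.9% of genes were higher and 27.5% lower, but the window of Irf9 there also holds the TSS of Emc9, Psme2, Rec8 and Rnf31.

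The remaining members varied in other ways. Irf5 had 630.1 and 694 in adult, 376 and 269 in Ki67-negative PND8, 514 and 351 in Ki67-positive PND8, and 271 and 431 in repopulation, so it was lower than adult in all 3 without overlap. Its region covered 2000 and 1567 bases of the window in adult and 904 to 1661 bases in these groups. Per covered kb it held 315 and 443 tags in adult and 266 to 328 in these groups, and Ki67-negative PND8 overlapped adult. Irf5 was the 1 member lower in Ki67-negative (5.24% of genes) and in Ki67-positive PND8 (3.91%). In PND8 Irf3 and Irf4 were higher than adult in Ki67-negative cells (47.4% of genes) and Irf1, Irf3 and Irf7 in Ki67-positive cells (60.8% of genes). Of all genes, 91.5% to 99.9% had less TSS signal than Irf5 in the 12 libraries, and 96.3% to 98.1% had less than Irf2 (343 to 561). Irf1 stood at 221 to 405. Irf8 had 78.1 and 272 in adult and 178 to 427 in the other libraries, with its lowest value in the adult library of few tags in regions.

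Irf4 and Irf7 also differed in which regions were called around them. At Irf4 a region near 11 kb upstream of the TSS was called in all 4 PND8 libraries (53.8 to 79.5 tags per 10000000), in both Ki67-negative cuprizone libraries (20.5 and 42.9) and in both repopulation libraries (41.8 and 30.2), but in no adult and no Ki67-positive cuprizone library. An ATAC peak lay there in all 3 ATAC libraries, at 126 tags in adult, 154.5 in PND8 and 130.5 in repopulation. A region near 18 kb downstream was called in all 12 libraries and was weakest in Ki67-positive cuprizone (11.8 and 36.9) and adult replicate 1 (35.8), against 60.4 to 141 in the others. Over the Irf4 TSS itself a region was called in 7 of 12 libraries, at 15.2 to 53.1 tags within 1 kb, and in neither repopulation library. Within 20 kb of the Irf4 TSS, H3K27ac summed to 35.8 and 117 in adult, whose Irf4 RNA was highest, and to 159 to 267 in PND8, whose RNA was lower. Repopulation, with RNA as low as PND8, had 115 and 90.6 and overlapped adult.

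At Irf7 a region between about 2 and 3.3 kb upstream was called in all 4 PND8 libraries (13.3 to 47.6 tags) and in Ki67-negative cuprizone replicate 2 (25.7), and in none of the adult, Ki67-positive cuprizone and repopulation libraries. A pair of ATAC peaks lay in that stretch in all 3 ATAC libraries. Within the gene, an ATAC peak between 253 and 392 bases downstream of the TSS was called in PND8 (14.9) and repopulation (33.8) and not in adult. A region 5 to 7 kb upstream of Irf1 was called in all 12 libraries and was lowest in the 2 repopulation libraries (184 and 208, against 273 to 440 in the others). A region 6 to 8 kb downstream of the Irf3 TSS was called in the 4 PND8 libraries (14.2 to 117) and adult replicate 2 (11.6) only.

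**Figure D5:**
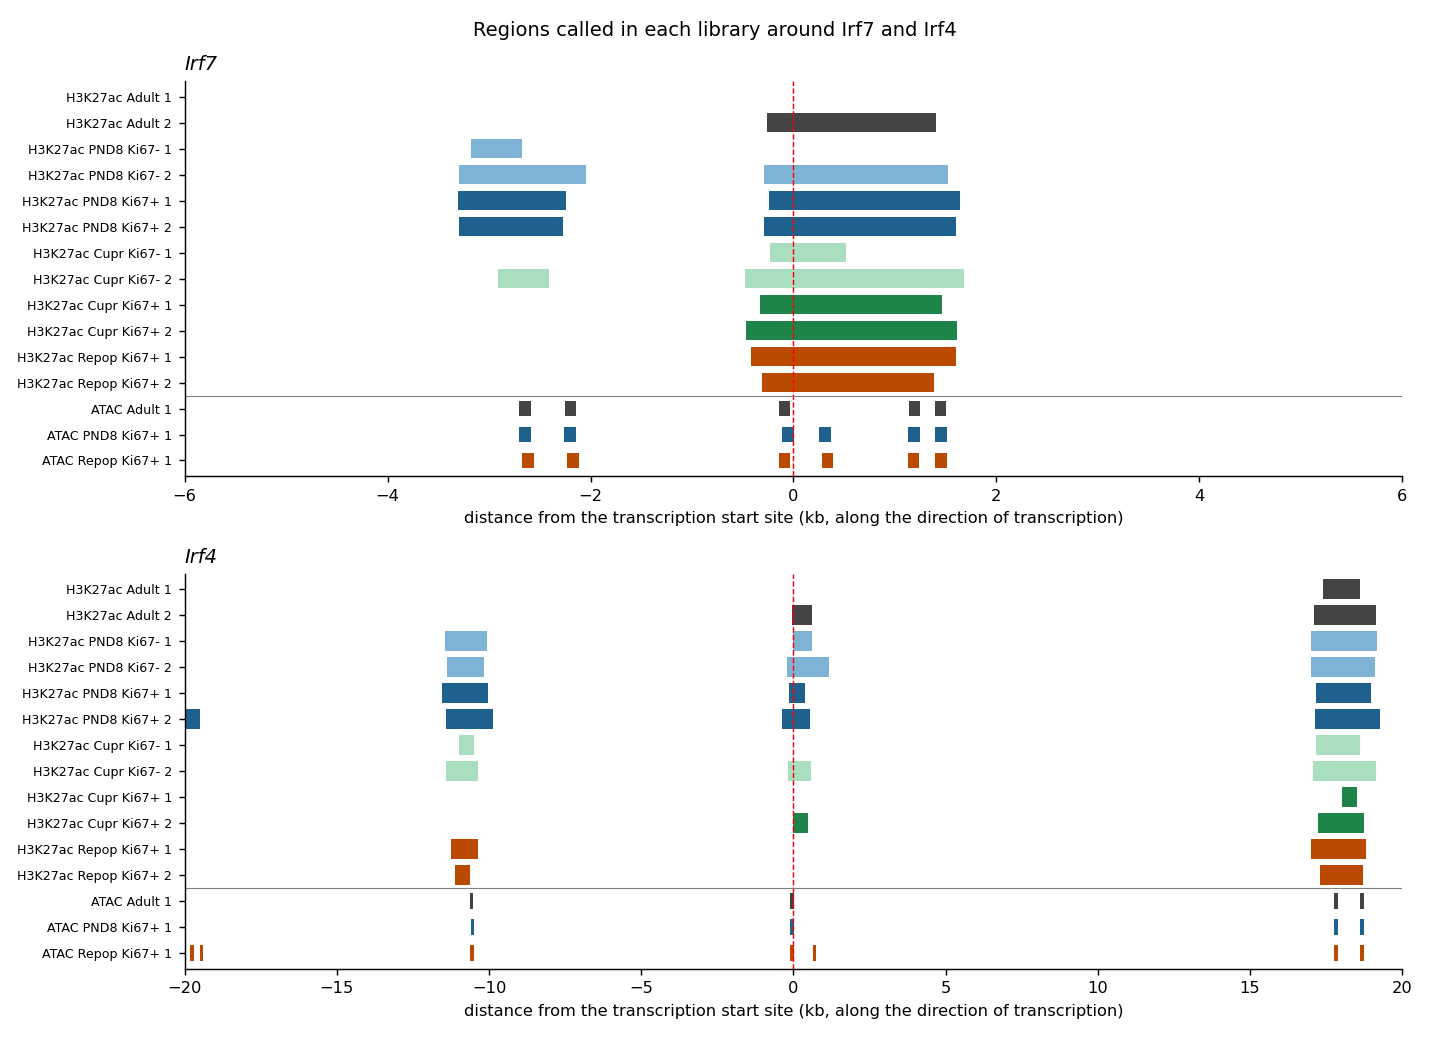
Called H3K27ac and ATAC regions around the TSS of Irf7 and Irf4 in each library, drawn to scale along the distance from the TSS in kb, in the direction of transcription. The region upstream of Irf7 appears in the PND8 libraries and 1 cuprizone library, and the region near 11 kb upstream of Irf4 is missing from the adult and Ki67-positive cuprizone libraries.

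Ki67 status was compared for H3K27ac in PND8 and in cuprizone. In PND8 Irf1 (289.7 and 221 in Ki67-negative against 331 and 338 in Ki67-positive cells) and Irf7 were higher in Ki67-positive cells, 2 of 8 members, where 35.6% of genes were higher and 3.08% lower. In cuprizone Irf7 alone was higher, 1 of 8, where 8.05% of genes were higher and 10.9% lower. The ratio of Ki67-positive to Ki67-negative signal of Irf7 was 2.12 and 1.498 in the 2 pairs of cuprizone libraries that share a header code. This separation was lost with a window of 2 kb each side and with one of 20 kb, in which instead Irf4 and Irf5 were lower in Ki67-positive cuprizone cells (13% of genes were lower). Irf9 was nearly equal between Ki67-positive and Ki67-negative cuprizone cells.

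Open chromatin, polymerase and H3K4me3 had too few libraries for a test. ATAC signal within 1 kb of the TSS was 43.4 in adult, 43.4 in PND8 and 76.9 in repopulation for Irf7, and 177, 100.3 and 107 for Irf9. It was 243, 100.3 and 129 for Irf4 and 193, 141 and 124 for Irf2, both highest in adult, while Irf5 had 100.3, 33.9 and 111, with PND8 lowest. The ATAC libraries had 43.6%, 31.3% and 39.3% of their tags in peaks. As a percent of the signal in peaks, Irf4 stayed highest in adult, but Irf2 had 0.00443 in adult and 0.00451 in PND8. Irf1 had 193, 155 and 143, Irf3 139, 77.3 and 85.0, and Irf8 133, 117 and 151. Rpb2 signal was highest at Irf8 in PND8 (416) and adult replicate 2 (308), with 201 in adult replicate 1, where Irf1 was higher (393). In adult replicate 2 no Rpb2 region was called within 1 kb of Irf4, Irf7 and Irf9, and in the other 2 libraries these had 14.0 to 25.0. Adult replicate 2 had 3.19% of its Rpb2 tags in called regions, against 6.78% in adult replicate 1 and 8.57% in PND8. H3K4me3 was called at all 8 TSS in both adult libraries, from 168 and 199.9 at Irf4 and 235 and 249.9 at Irf7 to 1101 and 1157 at Irf2, so the 2 members of lowest adult RNA still carried this mark.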

How the data were processed

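RNA, H3K27ac, ATAC, Rpb2 and H3K4me3 libraries of sorted mouse microglia were analysed; 16 input samples were not used as values. Per the submitters' processing notes, STAR 2.7.0f, Bowtie2 2.3.4.1, HOMER 4.11 and DESeq2 were used, on mm10. Per the file headers, the deposited raw counts were made with HOMER over exons of 1 transcript per gene, with at most 3 tags per position. That cap can hold down abundant short genes. The authors' deposited TPM values, which use other transcripts for 4532 genes, served for levels between genes. Region files give the authors' normalised tag signal (coverage scaled to 10000000 tags) and, per the file headers, a fold over input of at least 4.

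Counts were fitted with edgeR 4.0.16 (R 4.3.3): quasi-likelihood test, 10 libraries in 1 fit, TMM, filterByExpr, no replicate block, Benjamini-Hochberg over 12230 genes, threshold 0.05, 9 comparisons. CPM were computed from TMM library sizes. DESeq2 1.42.0, limma 3.58.1 on log2(TPM + 1) (pseudocount 1, or 0.1), glmTreat (fold of 2), the header code, a replicate block and leaving out each library were alternatives. The common biological coefficient of variation was 0.0957. For each H3K27ac, ATAC, Rpb2 or H3K4me3 window, the signal of a region was multiplied by the share of it inside the window and summed. The TSS is the 5′-most of the count-table and TPM-table transcripts, a rule chosen after the files were seen. Columns of other samples numbered 0. The scripts were tested on simulated data.

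The members and gene lists were chosen with earlier results of these data known. Named by rule were all members, the 3 genes most correlated with each, the 3 called genes of largest change per list and Stat2, Tbk1, Ikbke, Spi1 and Batf3; other list genes were chosen after their values were seen, and 1 gene named by the rule is not reported here. Batf3 did not pass in Ki67-positive repopulation against adult (log2 fold change −0.00). Summed marker levels of the other lists ranged over 17.7 to 56.4 CPM for lymphocytes, 53.6 to 565 CPM for astrocytes, 70.7 to 137 CPM for oligodendrocytes, 28.6 to 82.6 CPM for endothelial cells and 2.02 to 9.63 CPM for neurons. Replicates number 2 per group, so p-values rest on the spread pooled over groups.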

Additional observations from a re-analysis of the deposited data

Results flagged for a closer look

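The ratio of Ki67-positive to Ki67-negative H3K27ac signal within 1 kb of the TSS went in opposite directions in PND8 and cuprizone for 4 of 8 members: higher in both replicate pairs of PND8 and lower in both pairs of cuprizone. The difference was not tested. It is given as the mean log2 ratio, log2(signal + 1), of the PND8 pairs minus that of the cuprizone pairs. For Irf5 this was 1.13, from 0.45 and 0.38 in PND8 and −1.22 and −0.20 in cuprizone. For Irf1 it was 0.63 (0.19 and 0.61 against −0.06 and −0.40), and for Irf8 0.27 (0.05 and 0.03 against −0.15 and −0.31). For Irf9 it was 0.12, and its pairs lay close to 0 in cuprizone (0.0029 and 0.21 against −0.02 and −0.00048). Over all 11206 genes with signal, 11.6% had pairs in opposite directions, and 10.9% had the same direction as these members. The median log2 ratio of group means over these genes was 0.18 in PND8 and −0.0021 in cuprizone, so genes in general differed between the settings too. Both PND8 pairs of Irf8 lay below that PND8 median, as did the Irf9 pair at 0.0029.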

How the results depend on the processing

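The RNA calls of 30 single member results were recomputed under other settings. These were the results that passed, with Irf2 and Irf3 in PND8 by Ki67. Gains among the other results that did not pass were not counted. Of the 613 alternatives, 568 kept direction and side of the threshold, 42 lost the call, 3 gained it and 0 reversed. The rises of Irf7 in the 4 comparisons of repopulation and the fall of Irf4 in Ki67-positive repopulation against adult held in every one; the log2 fold change of Irf7 ranged from 2.36 to 3.58. A test against a fold of at least 2 (glmTreat) left 0 members in both comparisons of PND8 with adult, 2 in Ki67-positive and 1 in Ki67-negative repopulation against adult, and 1 and 1 in repopulation against PND8 of either status. Of all 12230 genes, it left 1055 in Ki67-positive and 905 in Ki67-negative PND8 against adult. For repopulation it left 916 (Ki67-positive) and 760 (Ki67-negative) against adult, and 492 and 600 against PND8. In PND8 Ki67-positive against Ki67-negative cells, 0 members passed edgeR's test, against 2 with the header code as a term and 1 with a replicate block (Irf2, adjusted p = 0.0301). Of all 12230 genes, 721 passed there, against 1627 with the header code and 1228 with the replicate block. The labels do not say that replicate numbers pair samples, and with 2 pairs per setting the deviations of same-numbered libraries correlated at 0.338 (PND8) and 0.263 (repopulation). With scaling to library sizes alone, the median log2 fold change of all genes was −0.127 in Ki67-negative repopulation against PND8, where it was −0.04 with TMM.

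Counts of members not overlapping in H3K27ac moved more. Except for the window of 20 kb, the share of all genes was not computed under the settings that follow. These counts therefore have no background to be set against and are not a result about the members. Leaving out 1 library gave 5 in each case in PND8 by Ki67 (2 with all), 2 to 7 in cuprizone by Ki67 (1), 3 to 7 and 4 to 8 in Ki67-negative and Ki67-positive PND8 against adult (3 and 4), 3 to 8 and 4 to 6 in Ki67-negative and Ki67-positive cuprizone against adult (3 and 3), and 5 to 7 in repopulation against adult (4), since 1 library against 2 overlaps less often. Regions at 8 times the input or more gave 1 in PND8 by Ki67 and 2 in repopulation against adult. The share of signal in regions gave 4 in PND8 by Ki67, 4 in cuprizone by Ki67 and 5 in Ki67-positive cuprizone against adult. In cuprizone by Ki67, 2 members were counted with a window of 20 kb, 2 with one of 500 bases, 2 with the TSS of the count table and 3 by the density of the region; that density gave 1 in Ki67-negative PND8 against adult. With groups of 2, regions called per library and adult replicate 1 low in tags in regions, small differences in H3K27ac were not detectable.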
